A study of Mus musculus with 12 samples.

Results

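Endothelial cell genes in sorted neurons that innervate the tongue were described here through 10 genes: Cldn5, Flt1, Kdr, Tek, Pecam1, Cdh5, Bmx, Cav1, Cav2 and Mmrn2. The genes were chosen by symbol, as known genes of blood vessel endothelium, and all 10 were found among the 22609 gene symbols of the count tables. RNA was sequenced from 12 samples of trigeminal ganglion cells, 3 in each of 4 groups: normal males (MN), tumor-bearing males (MT), normal females (FN) and tumor-bearing females (FT). All mice were Balb/c athymic nude animals, a strain that lacks mature T cells, and the tumors were grown in the tongue from HSC3 cells, an established human line of oral squamous cell carcinoma. Every group was injected in the tongue on day 13 with wheat germ agglutinin carrying a green dye (WGA-AF488), which is carried back along nerve fibers, and the ganglia were taken on day 15. Bright labeled cells were then sorted by flow cytometry. A normal sample pooled 4 ganglia from 2 mice and a tumor sample pooled 4 ganglia of the injected side from 4 mice, so no library is a single animal. The sort selected dye-labeled cells by brightness and used no antibody that would exclude endothelial cells.

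Endothelial cells line all blood vessels and are sealed to each other by tight and adherens junctions. Their growth and survival are steered by vascular endothelial growth factors, read by the receptors Flt1 (VEGFR1) and Kdr (VEGFR2), and by angiopoietins, read by the receptor Tek (Tie2). In sensory ganglia the capillaries run between the neuronal cell bodies, each of which is wrapped by satellite glia. Flask-shaped pits of the endothelial membrane, the caveolae, are built from caveolins such as Cav1 and Cav2. Bmx is a cytoplasmic tyrosine kinase of the Tec family found in arterial endothelium, and Mmrn2 (multimerin 2) is a glycoprotein of the endothelial matrix.

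The 10 genes lie on 8 chromosomes in mm9, and Bmx is the only X-linked gene among them (X:160630774-160696125, minus strand). Cav2 (6:17231185-17239115) and Cav1 (6:17256335-17291452) are neighbors on the plus strand, with 17219 bases between them. A gene annotated on the opposite strand, Gm15581, spans both, and a U3 gene lies within Pecam1 on the opposite strand (Pecam1 itself is at 11:106515531-106611942). Neither Gm15581 nor U3 has a row in the count tables, and since the strand setting of the counting is not given in the sources used here, reads from either strand cannot be told apart at these 3 genes. Cldn5 (16:18776940-18778353) has the shortest exon length of the 10, 1414 bases, and Flt1 (5:148373180-148537587) the longest, 11583 bases.

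Promoters from RefSeq (assembly GRCm38.p6), 250 bases before to 50 bases after the gene start, were given for 7 of the 10 genes, and those of Cldn5 and Cav2 are shown because these genes came apart from the others in several of the measurements that follow, with that of Cav1 as the neighbor of Cav2. The capitals mark GGAA or its reverse complement TTCC, the core letters bound by ETS family factors, several of which act in endothelium. All 3 were located in mm9 by an exact match, on the plus strand, at chr16:18776690-18776989 for Cldn5, chr6:17230935-17231234 for Cav2 and chr6:17256085-17256384 for the upstream of 2 Cav1 starts.

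Cldn5: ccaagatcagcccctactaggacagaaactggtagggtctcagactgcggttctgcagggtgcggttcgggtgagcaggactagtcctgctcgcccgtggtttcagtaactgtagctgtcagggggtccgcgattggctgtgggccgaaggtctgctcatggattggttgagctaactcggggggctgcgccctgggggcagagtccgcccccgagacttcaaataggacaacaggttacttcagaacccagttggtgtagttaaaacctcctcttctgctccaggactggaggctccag

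Cav2: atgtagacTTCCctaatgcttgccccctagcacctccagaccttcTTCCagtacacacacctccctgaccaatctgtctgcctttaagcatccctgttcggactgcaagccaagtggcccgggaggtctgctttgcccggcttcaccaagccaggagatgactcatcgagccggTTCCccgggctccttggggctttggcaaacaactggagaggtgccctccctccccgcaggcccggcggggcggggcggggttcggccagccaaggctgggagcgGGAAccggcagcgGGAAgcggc

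Cav1: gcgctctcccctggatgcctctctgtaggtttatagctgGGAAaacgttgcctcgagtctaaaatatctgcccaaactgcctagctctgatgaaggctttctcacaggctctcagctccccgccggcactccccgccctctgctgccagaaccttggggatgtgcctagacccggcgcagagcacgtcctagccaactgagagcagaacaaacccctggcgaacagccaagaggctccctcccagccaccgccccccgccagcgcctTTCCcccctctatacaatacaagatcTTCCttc

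GGAA on either strand was found in 96% of the 32544 mouse promoters of this table, overlapping matches counted, and in the promoters of 6 of these 7 genes. Cav2 held 5 matches and this Cav1 promoter 3, while Cldn5 held 0 in the window shown. The longer letters AGGAAG (or CTTCCT), which contain GGAA, were found in 35.1% of all promoters and in those of Flt1 and Cav1. A match is only a match of letters, and no match says only that the letters are not in this window.

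Each library held between 4592891 and 8922011 reads on genes, and CPM scale each count to the total of these reads. The libraries FN2, FT2 and FT3 stood apart from the rest. Of the counts over all their rows, 56.0%, 68.4% and 52.6% were in the row for reads that map to several places in the genome. This was 43.0% to 45.5% in the other 9 libraries. Results are therefore given with all 12 libraries, with 10 (without FN2 and FT2) and with 9 (without FN2, FT2 and FT3). In the last set FT is FT1 alone, which a test can use only by assuming that it varies like the other groups. Markers of sensory neurons were the main signal in every library, with 16655 to 30582 CPM summed over 16 genes, and the 10 endothelial genes summed to 204 to 1226 CPM. Each of the 10 genes had reads in every library. In these bulk samples fewer endothelial cells and less RNA per cell cannot be told apart.

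Per exon length, Cldn5, the claudin that seals the tight junctions of brain and nerve capillaries, was the most abundant of the 10 genes, with 221 ± 82.9 RPKM (CPM per kilobase of exon, mean ± SD over 9 libraries). Cav1 (30.7 ± 6.90), Cav2 (28.0 ± 7.03) and Pecam1 (26.0 ± 9.69 RPKM) followed at levels that did not differ beyond their spread, then Mmrn2 (17.8 ± 6.44). Flt1 (8.69 ± 4.27) and Tek (6.81 ± 3.22), then Cdh5 (4.00 ± 1.70) and Bmx (3.61 ± 1.85 RPKM), were again within the spread of their neighbors, and Kdr was lowest at 1.87 ± 0.932 RPKM. The gap between Cldn5 and the next gene was thus the only one between neighbors in this order that exceeded the sum of both SDs. These SDs measure the spread between libraries, not that of a difference between genes of the same library. Within each of the 9 libraries Mmrn2 was above Flt1, Tek above Cdh5 and Bmx above Kdr in RPKM.

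Among the receptors, Flt1 measured 72.1, 38.7 and 106 CPM in MN1, MN2 and MN3 and 42.1, 69.7 and 119 CPM in MT1, MT2 and MT3. In females Flt1 measured 169, 28.6 and 173 CPM in FN1, FN2 and FN3 and 116, 37.4 and 47.8 CPM in FT1, FT2 and FT3. FN1 and FN3 were the highest libraries of all 12 for Flt1, and FN2 the lowest. Tek measured 28.8, 16.0 and 38.8 CPM in MN, 9.43, 24.6 and 36.7 in MT, 53.6, 3.26 and 53.6 in FN and 27.4, 2.83 and 6.83 in FT, in the order of the replicates. Kdr, in the same order, measured 13.5, 5.38 and 12.4 CPM in MN, 4.78, 10.3 and 21.0 in MT, 21.9, 6.26 and 22.5 in FN and 10.7, 0.218 and 7.39 in FT. The value of Kdr in FT2 is 1 read, under the limit of 3 counts at which a level can be told from 0. For Tek and Kdr as for Flt1, FN1 and FN3 were above every other library, and the FT libraries were below both.

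Among the junction genes, Cldn5 measured 259, 137 and 365 CPM in MN, 139.9, 262 and 405 in MT, 403, 427 and 445 in FN and 397, 59.2 and 624 in FT. FN2 and FT3, where the receptors were low, had Cldn5 within or above the range of FN1, FN3 and FT1, and FT2 had the lowest Cldn5 of all 12. Pecam1 (CD31, an adhesion molecule between endothelial cells that some blood cells also carry) measured 85.1, 43.9 and 134 CPM in MN, 65.5, 113 and 152 in MT, 163, 15.0 and 154 in FN and 101, 4.79 and 15.6 in FT. FN2, FT2 and FT3 lay below all 9 other libraries for Pecam1, and FT1 lay within the male range. Cdh5 (VE-cadherin, the adherens junction cadherin of endothelium) measured 9.42, 9.98 and 18.02 CPM in MN, 7.04, 13.2 and 21.7 in MT, 24.1, 4.04 and 25.8 in FN and 14.4, 30.3 and 6.55 in FT. FT2, the lowest library for Cldn5 and Pecam1, was thus the highest of all 12 for Cdh5.

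Of the caveolins, Cav1 measured 103, 69.4 and 111 CPM in MN, 77.5, 93.9 and 123 in MT, 142, 12.9 and 129.6 in FN and 101, 30.9 and 40.2 in FT. Cav2, which assembles with Cav1 in caveolae, measured 121, 77.7 and 92.8 CPM in MN, 98.6, 78.8 and 95.9 in MT, 131, 12.8 and 91.9 in FN and 52.0, 12.4 and 16.0 in FT. All 3 FT libraries were below all 6 male libraries for Cav2, and FN2 was as low as FT2. Mmrn2 measured 54.7, 41.0 and 80.7 CPM in MN, 34.1, 59.6 and 93.2 in MT, 93.8, 14.7 and 108 in FN and 66.5, 10.7 and 21.2 in FT, with the same order of libraries as Tek in females. Bmx measured 9.56, 5.60 and 7.92 CPM in MN, 5.53, 8.47 and 12.8 in MT, 16.0, 10.3 and 23.6 in FN and 10.97, 15.5 and 5.02 in FT. For Bmx, FN2 and FT2 were within or above the male range, and only FT3 among the 3 libraries that stood apart was low.

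**Figure D1:**
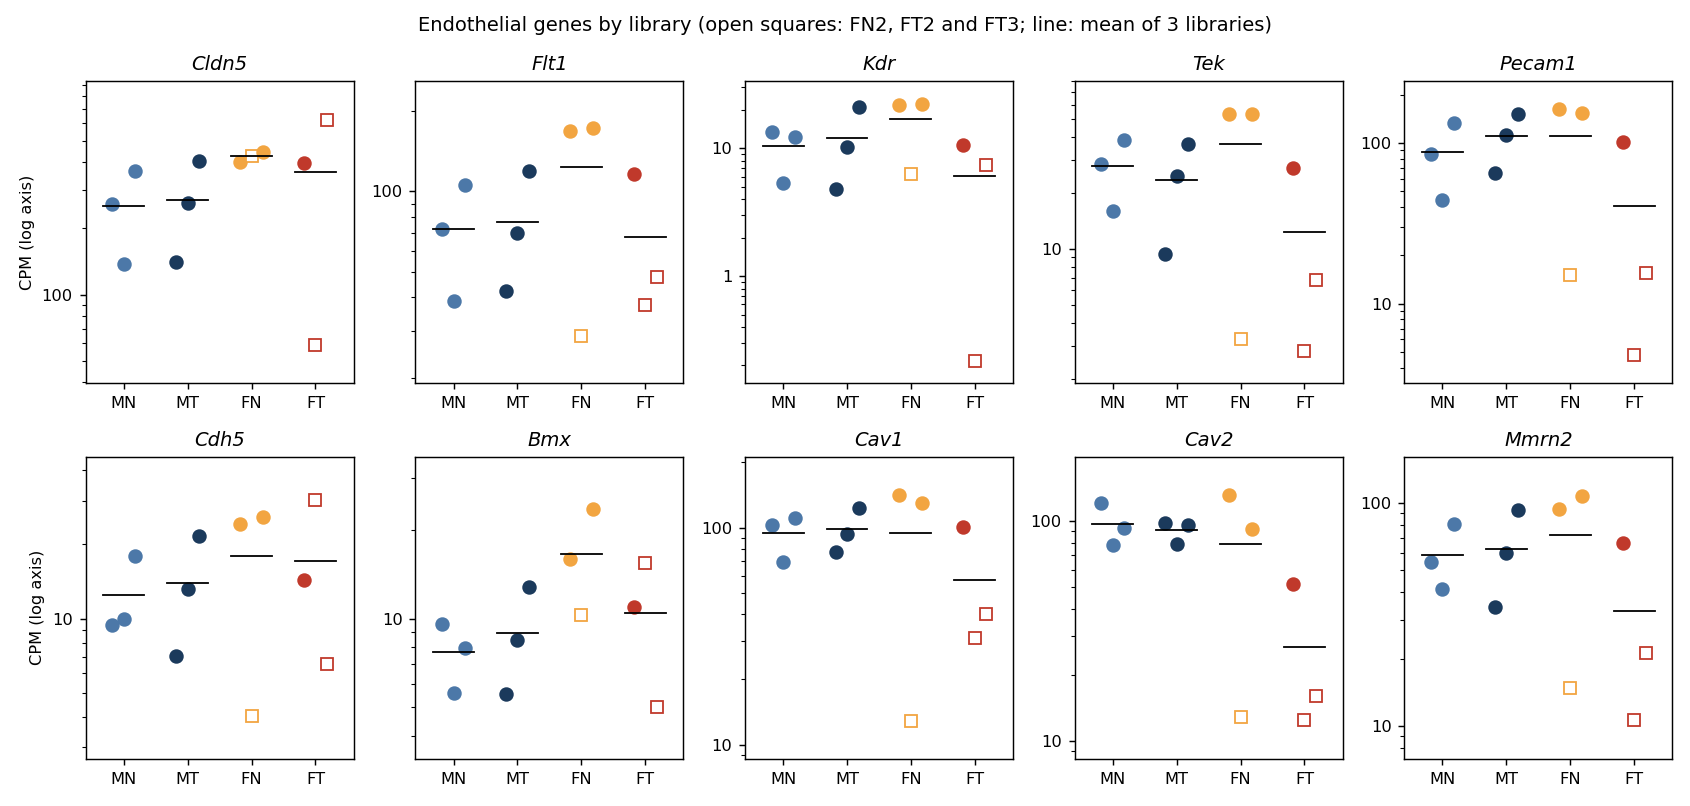
CPM of the 10 endothelial genes (log axis) in each library, by group, with filled circles for 9 libraries, open squares for FN2, FT2 and FT3 and a line at the mean of 3 libraries. The male groups overlap for every gene, FN1 and FN3 are at the top for most genes, and the open squares fall low for most genes but not for Cldn5 (FN2, FT3), Cdh5 (FT2) and Bmx (FN2, FT2).

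Whether a tongue tumor changed these genes in male mice was asked by MT versus MN. All 10 genes were within 0.34 of 0 on the log2 scale, from -0.24 ± 0.79 (SE) for Tek to 0.34 ± 0.83 for Pecam1, and the median of the 10 was 0.10 against 0.01 over all genes. With edgeR, 0 of the 10 had an adjusted p under 0.05 (0.0% of the 13835 genes tested) and 0 an unadjusted p under 0.05 (0.426% of genes). DESeq2 and limma-voom also called 0 of the 10. The spread within each group was the larger part: MN2 and MT1 had the lowest sums over the 10 genes among males, 445 and 484 CPM, and MN3 and MT3 the highest, 965 and 1080.5 CPM. Cav2 varied least, from 77.7 to 121 CPM over the 6 male libraries. With 9 libraries, where the standard errors were smaller, Cav1 differed by 0.08 ± 0.17 and Cav2 by -0.07 ± 0.17, and these misses of the threshold do not show that the groups are alike.

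Whether a tumor changed them in females was asked by FT versus FN. With 12 libraries 9 of the 10 genes were lower in FT, by a median log2 fold change of -0.92 against -0.06 over all genes, and Cdh5 was at 0.18 ± 0.66. Cav2 was 2.74-fold lower (log2 fold change -1.46 ± 0.60, unadjusted p = 0.029) and the only one of the 10 to reach an unadjusted p under 0.05 among lower genes (0.643% of genes). Its adjusted p in edgeR was 0.994, and no gene of the 13835 was called (0.0%). DESeq2 and limma-voom also called 0 of the 10 genes. Tek (-1.49 ± 0.81), Pecam1 (-1.41 ± 0.85), Kdr (-1.41 ± 0.76) and Mmrn2 (-1.07 ± 0.63) were lower by as much or somewhat less, with wider errors. Bmx, Cav2, Tek, Mmrn2, Cdh5 and Pecam1 were picked by the study from these same libraries as lower in FT than in FN. Their values here and in every other comparison with FN or FT are thus not independent evidence.

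The libraries FN2 and FT2 set much of this comparison. Without them, 7 genes had an unadjusted p under 0.05, Kdr, Tek, Cdh5, Bmx, Cav1, Cav2 and Mmrn2, all lower in FT, where 5.66% of genes were lower at this p. In this set Cav2 had a log2 fold change of -1.65 ± 0.41 (unadjusted p = 0.00169), Bmx -1.23 ± 0.43 (unadjusted p = 0.0138), Tek -1.59 ± 0.61 (unadjusted p = 0.0236) and Cdh5 -1.18 ± 0.48 (unadjusted p = 0.03). The edgeR adjusted p of these 4 genes was 0.334, and none of the 10 was called. Cdh5 thus turned from slightly higher to lower when FT2, its highest library, was left out, and Cldn5 turned from -0.27 ± 0.60 to 0.39 ± 0.47. Apart from Cldn5, both remaining FT libraries were below FN1 and FN3 for 9 of the 10 genes, an order seen for 25.7% of all genes.

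With FT3 left out as well, FT1 was below FN1 and FN3 for all 10 genes, which was the case for 36.7% of all genes. The estimates became smaller, with a median of -0.71: Tek -0.96 ± 0.57, Bmx -0.84 ± 0.44, Pecam1 -0.63 ± 0.50 and Cldn5 -0.09 ± 0.50. Cav2 was then the only one of the 10 past an unadjusted p under 0.05 (-1.09 ± 0.28, unadjusted p = 0.00192), where 2.91% of genes were lower at this p, and its adjusted p was 0.997. FT1 had 52.0 CPM of Cav2 against 77.7 to 131 CPM in the male libraries, FN1 and FN3. A lower Cav2 in FT thus appeared in each of the 3 sets of libraries and passed correction over all genes in none.

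Markers of other cell types were read in the same comparison of FT with FN. With 10 libraries 5 of 16 sensory neuron genes were higher at an unadjusted p under 0.05 (9.03% of genes) and 0 lower, with a median log2 fold change of 0.32 against -0.06 over all genes, and with 12 libraries 1 of 16 was higher (3.17% of genes) with a median of -0.0041. Of 11 pericyte and smooth muscle genes tested, 3 were higher with 12 libraries and 3 with 10, with medians of 0.70 and 0.16. With 10 libraries 0 of 11 macrophage, 1 of 8 satellite glia, 1 of 7 myelinating Schwann cell and 1 of 8 fibroblast genes were higher, and 0 were lower. The summed levels of these lists overlapped between the groups: sensory neuron genes summed to 20620 to 30582 CPM in FN and 16655 to 28637 CPM in FT, and pericyte and smooth muscle genes to 147 to 310 CPM in FN and 146 to 295 CPM in FT. The part of these cells in the values of the 10 genes was not tested.

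**Figure D2:**
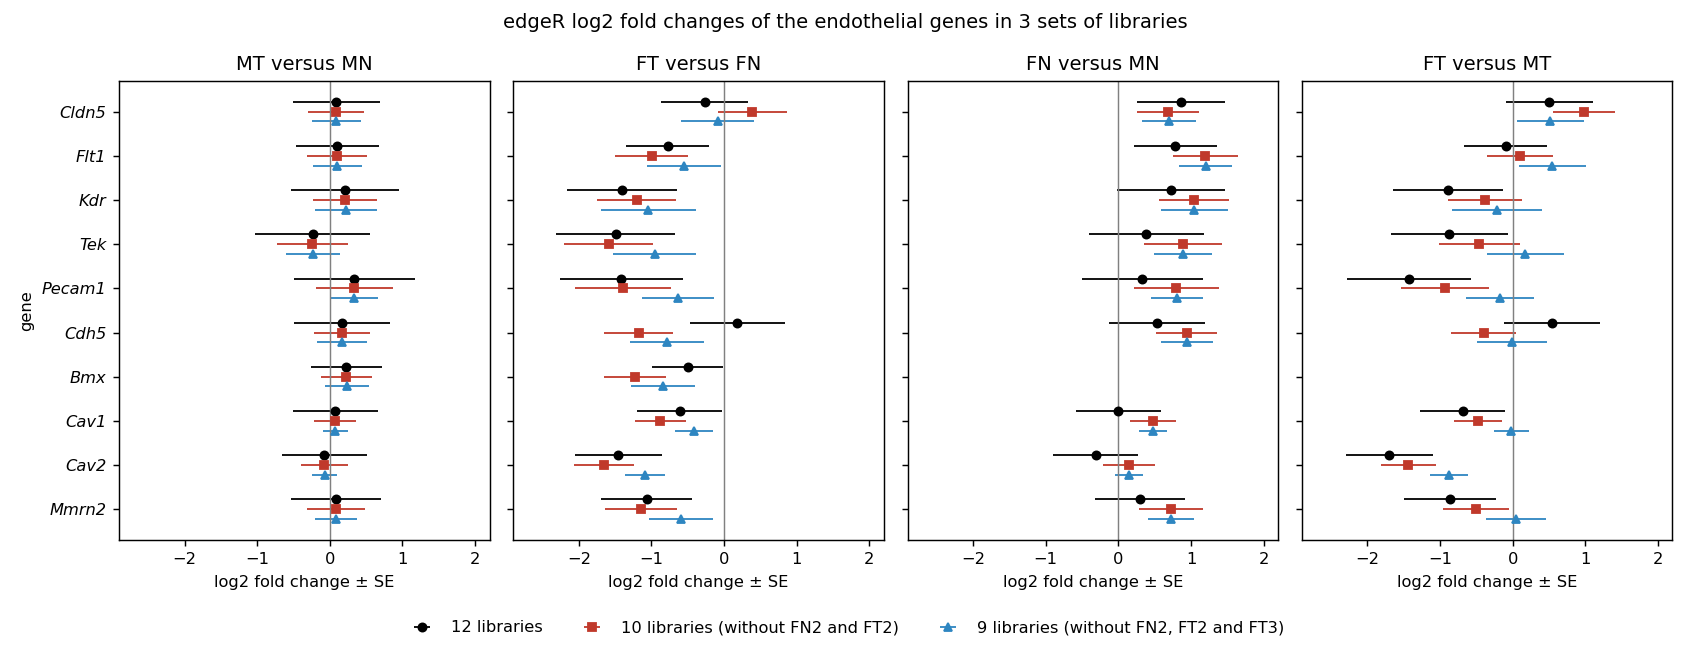
edgeR log2 fold changes (horizontal axis, bars are standard errors) of the 10 endothelial genes (vertical axis) in 4 comparisons, with 12 libraries (black circles), 10 libraries (red squares) and 9 libraries (blue triangles); Bmx is X-linked and was not tested between the sexes. MT versus MN lies near 0 in all 3 sets, FT versus FN lies below 0 for most genes, and Cav2 is the lowest gene of FT versus MT in each set.

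The difference between the sexes in the tumor effect, FT minus FN against MT minus MN, was tested directly. With 12 libraries none of the 10 genes had an unadjusted p under 0.05 among negative differences (0.477% of genes) or an adjusted p under 0.05 (0.0%). The difference was -1.38 ± 0.83 for Cav2 and -1.75 ± 1.19 for Pecam1 on the log2 scale. With 10 libraries Cav2 (-1.58 ± 0.52, unadjusted p = 0.0102), Bmx (-1.46 ± 0.55, unadjusted p = 0.0216) and Cdh5 (-1.34 ± 0.61, unadjusted p = 0.0493) reached an unadjusted p under 0.05, where 2.84% of genes did so among negative differences, with an adjusted p of 0.635 in edgeR. With 9 libraries only Cav2 did (-1.02 ± 0.32, unadjusted p = 0.00816), where 3.1% of genes did. A tumor effect that differs between the sexes was therefore not shown for any of the 10 genes after correction.

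Sex differences without a tumor were asked by FN versus MN, with genes on X and Y left out as in the study, so that Bmx was not tested. With 12 libraries 0 of the 9 genes tested had an unadjusted p under 0.05 among higher genes (5.21% of 13360 genes) or an adjusted p under 0.05 (0.0%) in edgeR, and only for Cldn5 did all 3 FN libraries exceed all 3 MN libraries (9.66% of genes). Without FN2 and FT2, 8 of the 9 genes were higher in FN1 and FN3 than in every MN library, an order seen for 23.2% of all genes, and Cav2 was the exception. Of these, Flt1 (2.29-fold, log2 fold change 1.19 ± 0.45, unadjusted p = 0.0207) and Cdh5 (1.92-fold, 0.94 ± 0.42, unadjusted p = 0.045) reached an unadjusted p under 0.05, against 4.82% of genes among higher ones, with adjusted p of 0.693 and 0.812.

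Leaving out FT3 too, a library of neither group, changed the shared estimate of the spread, and 7 genes then reached an unadjusted p under 0.05: Flt1, Kdr, Tek, Pecam1, Cdh5, Cav1 and Mmrn2, against 8.66% of genes among higher ones. Their log2 fold changes were 0.48 ± 0.19 for Cav1 up to 1.20 ± 0.37 for Flt1, and their adjusted p was 0.163 or more. When MN, FN1 and FN3 were fitted alone, a choice made after the data were seen, 5 genes were called by edgeR at an adjusted p under 0.05: Flt1 (0.0163), Cdh5 (0.0389), Tek (0.0473), Mmrn2 (0.0486) and Kdr (0.04995), where 5.53% of genes were called. With all 12 libraries and sample quality weights in limma-voom, Flt1 (adjusted p = 0.0113), Kdr (0.0342) and Cdh5 (0.0359) were called, where 5.99% of genes were. DESeq2 called 0 of the 9. Cav2 differed by 0.15 ± 0.18 in the fit of MN, FN1 and FN3 and by -0.31 ± 0.59 with 12 libraries.

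Markers of some other cell types moved with this comparison. Over the 11 macrophage genes measured, the summed level was 16.1 to 26.2 CPM in MN and 110.3 to 254 CPM in FN, with 10 of 11 higher at an unadjusted p under 0.05 with 12 libraries (5.21% of all genes) and with 9 (8.66%). The 8 satellite glia genes summed to 4153 to 4971 CPM in MN and 8174 to 16454 CPM in FN, and the 8 fibroblast genes to 83.9 to 146 CPM in MN and 169 to 413 CPM in FN. Of the satellite glia sum, Apoe alone was 3280 to 3968 CPM in MN and 6516 to 15599 CPM in FN. With 12 libraries 2 of 7 satellite glia genes tested and 2 of 8 fibroblast genes were higher at an edgeR unadjusted p under 0.05. With 10 libraries these were 3 and 2 (4.82% of all genes). In both sets 2 of 11 pericyte and smooth muscle genes and 0 of 7 myelinating Schwann cell genes were higher, and 0 were lower in these lists. The 16 sensory neuron genes summed to 22161 to 24063 CPM in MN and to 20620, 30582 and 21752 CPM in FN1, FN2 and FN3. FN1 and FN3 were thus below every MN library in this sum, and FN2 was above. With 9 libraries the median log2 fold change was 0.79 for satellite glia, 0.61 for fibroblasts and 2.88 for macrophages. It was 0.19 for pericytes and smooth muscle, 0.05 for myelinating Schwann cells and -0.19 for sensory neurons. The 9 endothelial genes tested had 0.81, and all genes 0.0021. MT3, the male library with the highest endothelial sum, had 149.6 CPM of macrophage genes against 9.43 and 14.7 in MT1 and MT2. The part of these cells in the differences of the 10 genes was not tested.

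Between the tumor-bearing groups, FT versus MT, Cav2 had the smallest unadjusted p of the 9 endothelial genes tested. It was 3.24-fold lower in FT (log2 fold change -1.70 ± 0.60, unadjusted p = 0.0137, edgeR adjusted p = 0.34). It was the only one of 9 genes tested to reach an unadjusted p under 0.05 among lower genes (2.09% of genes), and the only one for which the 3 libraries of each group did not overlap in this direction (9.61% of genes). No gene was called by edgeR at an adjusted p under 0.05 (0.0%), while DESeq2 called 246 genes and 0 of these 9. With 10 libraries Cav2 was at -1.44 ± 0.38 (unadjusted p = 0.00286), where 9.0% of genes were lower at an unadjusted p under 0.05, and Cldn5 was higher at 0.99 ± 0.43 (unadjusted p = 0.0396), where 13.5% were higher. With 9 libraries Cav2 was at -0.87 ± 0.26 (unadjusted p = 0.00613), where 4.64% of genes were lower, and the other genes tested were at -0.21 to 0.55. When FT1 was left out, FT was FT2 and FT3 alone, both among the libraries that stood apart. In edgeR Pecam1 (-3.22 ± 0.83, adjusted p = 0.0434) and Cav2 (-2.44 ± 0.65, adjusted p = 0.0462) were then called, among 755 genes in all. With 12 libraries 13360 genes were tested in this comparison. Other cell types moved here too, with 10 libraries and at an unadjusted p under 0.05 in edgeR. Higher in FT were 9 of 11 macrophage, 5 of 7 satellite glia, 4 of 8 fibroblast and 4 of 11 pericyte and smooth muscle genes. So were 3 of 7 myelinating Schwann cell and 2 of 16 sensory neuron genes, against 13.5% of all genes. Lower were 1 sensory neuron gene and 0 of the other lists. The part of these cells in the values of Cav2 was not tested.

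FT versus FN, FN versus MN and FT versus MT share libraries, so these values are not separate observations of the same gene. FN is the control of the tumor comparison in females and the female side of the comparison without a tumor. For Tek with 9 libraries, for example, FT was at -0.96 ± 0.57 against FN, FN at 0.90 ± 0.40 against MN and FT at 0.17 ± 0.53 against MT. Tek, Pecam1, Cdh5, Cav2, Mmrn2 and Bmx were picked by the study as low in FT against these FN libraries. Shares over all genes are therefore not a like reference for these picked genes in any comparison that uses FN or FT.

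**Figure D3:**
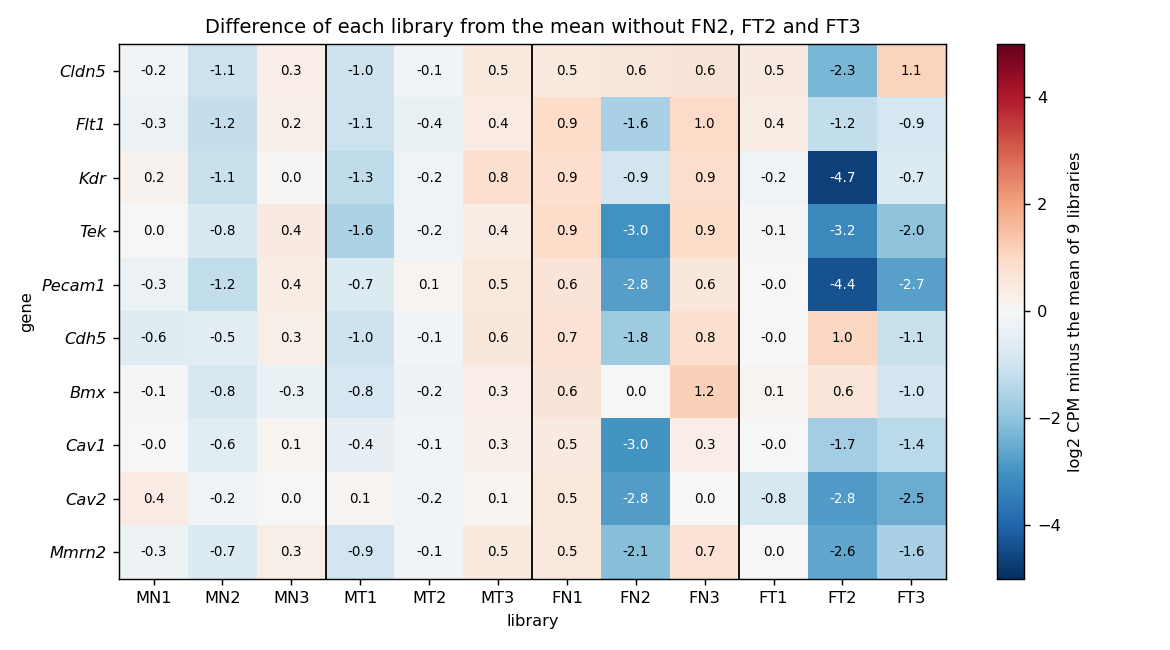
Difference of log2 CPM from the mean of 9 libraries (color, numbers in the cells) for the 10 endothelial genes (rows) in 12 libraries (columns). In most of the 9 libraries the genes of a column lie mostly on the same side of the mean, Cav2 less so, while MN1 and FT1 have genes on both sides. In FN2, FT2 and FT3 most genes lie below the mean, except Cldn5 (FN2, FT3), Cdh5 (FT2) and Bmx (FN2, FT2).

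Across the 9 libraries, 9 of the 10 genes rose and fell together. The 36 pairs without Cav2 had Pearson's r of 0.80 to 0.97 in log2 CPM (median 0.92), whereas the 9 pairs with Cav2 had r of 0.01 to 0.38. In the 6 male libraries alone the same pairs had r of 0.73 to 1.00 without Cav2 and -0.17 to 0.42 with it. Over 12 libraries Cav2 had r of 0.90 with Cav1 and 0.91 with Pecam1, since all 3 were low in FN2, FT2 and FT3, while Cldn5, Cdh5 and Bmx came apart from the rest, down to r = -0.19 between Cldn5 and Cdh5. These are descriptions of 9, 6 or 12 points that share library, depth and preparation, and the groups are among what separates the points.

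**Figure D4:**
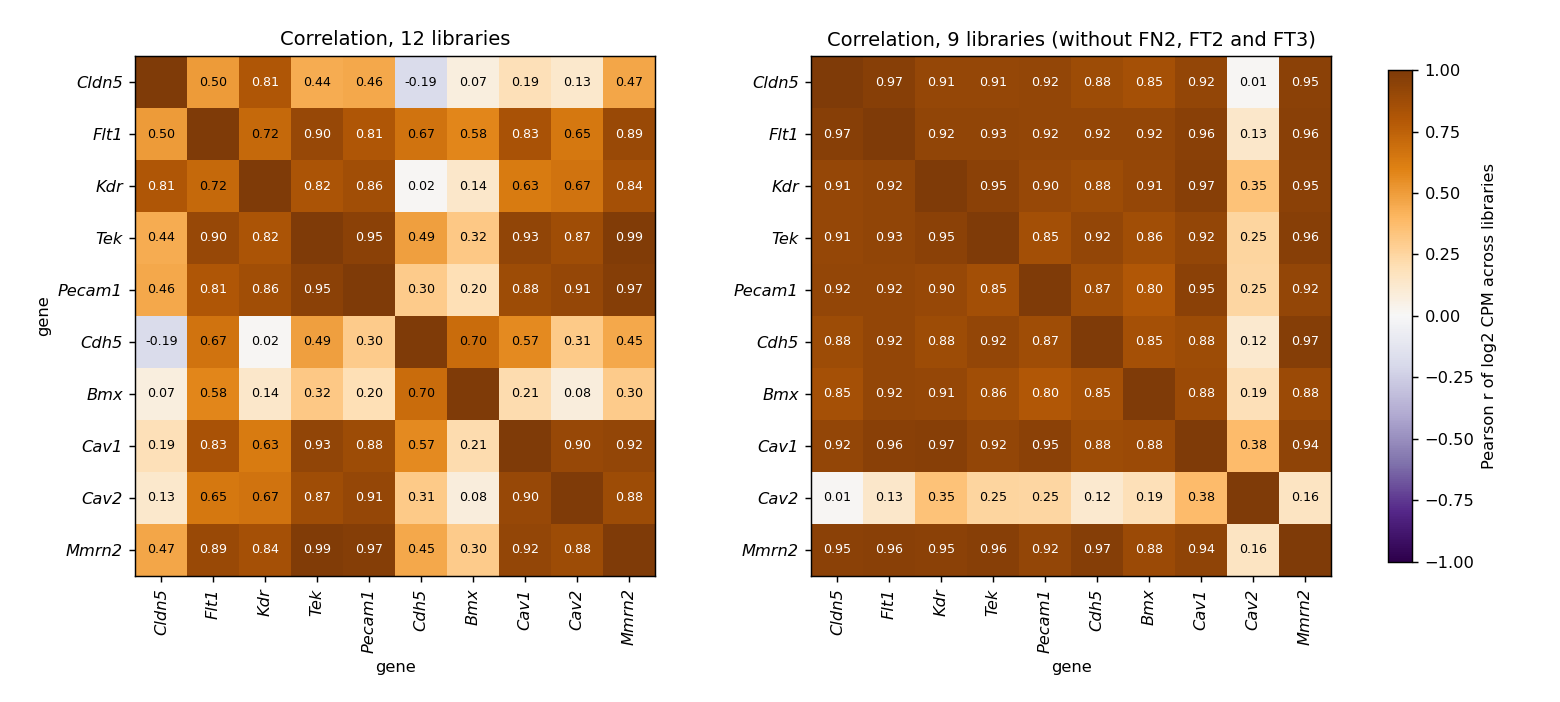
Pearson's r of log2 CPM between pairs of the 10 endothelial genes over 12 libraries (left) and over 9 libraries (right), as color and as numbers. On the right all genes but Cav2 are correlated at 0.80 or above, and on the left Cldn5, Cdh5 and Bmx are weakly correlated with most others.

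The mean log2 level of the 9 other members followed the lists of other endothelial genes across the 9 libraries, with r of 0.94 to 0.98 for 5 of the 6 lists and 0.91 for the VEGF and angiopoietin pathway. It had r of 0.76 with pericytes and smooth muscle, 0.79 with satellite glia, 0.74 with macrophages, 0.66 with fibroblasts, 0.66 with myelinating Schwann cells and -0.75 with sensory neurons. Cav2 had r of 0.04 to 0.16 with the 6 endothelial lists and -0.34 with sensory neurons. Among these 9 libraries Cav2 thus did not follow the vessel genes, and its r with the lists of other cell types was -0.34 to 0.03. Over 12 libraries it did not come apart in this way. Cav2 then had r of 0.80 with the 9 other members, 0.40 to 0.77 with the 6 endothelial lists and 0.79 with sensory neurons.

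Over 12 libraries the genes most like the mean of the 10, of 13651 compared, were Itga5 (r = 0.99), Prom1 (0.99), Ocln (0.99), Eltd1 (0.98), Arhgef15 (0.98), Fli1 (0.98), Sorbs2 (0.97), Sgms1 (0.97), Clic5 (0.97) and Tmod3 (0.97). Ocln encodes occludin, a tight junction protein, Itga5 the integrin chain that binds fibronectin, and Fli1 an ETS factor of endothelium and blood cells. Over 9 libraries the list was Rai14 (0.99), 9430020K01Rik (0.98), Fam167b (0.98), Sox17 (0.98), Rbms2 (0.98), Lef1 (0.97), Sntb1 (0.97), Pros1 (0.97), Egfl7 (0.96) and Robo4 (0.96), and 0 genes were on both lists. Egfl7 and Robo4 are known for their expression in endothelium, and Sox17 is a factor of arterial endothelium.

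Other genes of endothelium were read from 6 lists. In FT versus FN with 12 libraries, 2 of 13 genes of the VEGF and angiopoietin pathway (Vegfa and Pgf, both higher), 0 of 5 caveola genes, 0 of 18 junction and adhesion partners, 0 of 12 transcription factors, 1 of 21 other endothelial markers (Fn1, lower) and 1 of 10 arterial, capillary and venous genes (Slc38a5, higher) had an unadjusted p under 0.05, against 3.17% of all genes among higher and 0.643% among lower ones, and the genes in parentheses were named after their values were seen. Their median log2 fold changes were -0.09, -0.40, -0.54, -0.68, -0.57 and -0.19 in this order, against -0.06 over all genes. With 10 libraries 1 of 13, 0 of 5, 2 of 18, 1 of 12, 3 of 21 and 0 of 10 were lower. This was at an unadjusted p under 0.05, where 5.66% of all genes were lower. Higher at this p were 1, 1, 0, 0, 0 and 1, against 9.03% of all genes. Some of the lower ones were also named by the study as lower in FT. In FN versus MN with 12 libraries the same lists had 0 of 12, 1 of 5, 0 of 18, 3 of 12, 5 of 20 and 1 of 9 genes higher at an unadjusted p under 0.05, against 5.21% of all genes, and 0 lower. With 9 libraries they had 6 of 12, 2 of 6, 9 of 18, 8 of 12, 11 of 20 and 5 of 9 genes higher, against 8.66% of all genes, and 2, 0, 1, 0, 0 and 0 lower, against 6.57%. Among the genes of highest CPM, with 9 libraries, Jup (plakoglobin, a junction protein of many cell types), the gene of highest CPM (not per length) in the junction list, was lower at -0.42 ± 0.11 (unadjusted p = 0.00227, adjusted p = 0.11 in edgeR), with 1037 to 1164 CPM in MN and 774 and 928 CPM in FN1 and FN3. Slc2a1, the glucose transporter of barrier capillaries, was at 0.89 ± 0.31 and Esam, an endothelial adhesion molecule, at 0.89 ± 0.24, while Ctnnb1 (beta-catenin), which neurons express as well, was at -0.04 ± 0.09.

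In MT versus MN with 9 libraries these lists had medians of -0.01 to 0.32. Among the caveola genes, Ptrf (cavin-1, the coat protein of caveolae) measured 90.2 to 200.1 CPM in MN and 107 to 199.5 CPM in MT. Prkcdbp (cavin-3) measured 52.5 to 64.4 CPM in MN and 73.6 to 77.5 in MT, 87.2, 227 and 91.5 CPM in FN and 95.2, 83.8 and 148 CPM in FT, so that FN2 and FT3 were its highest libraries, where Cav1 and Cav2 were low. Pacsin2, which bends caveolar membranes, measured 108, 28.6 and 111 CPM in FN and 93.8, 48.8 and 30.3 CPM in FT.

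In the 3 libraries that stood apart, the genes were compared with the other libraries of their group. FN2 was below the mean of FN1 and FN3 for 9 of the 10 genes, with a median difference of -2.66 on the log2 scale, and Cldn5 differed by 0.01. FT3 was below FT1 for 9 of the 10 with a median of -1.30, and Cldn5 was 0.65 higher. FT2 was below FT1 for 8 of the 10 with a median of -2.33, including Cldn5 at -2.74, and Cdh5 and Bmx were higher. Exon length moved with these differences in FN2 and FT3: over 76 other endothelial genes Spearman's rho of the difference with exon length was -0.37 in FN2 and -0.48 in FT3, and 0.04 in FT2. Over 13162 genes rho was -0.41, -0.47 and 0.04. In FN2 the 11 endothelial genes with exons under 2000 bases had a median difference of 1.06 and the 39 genes from 4000 bases one of -1.93, and in FT3 these were 0.64 and -0.98. Cldn5 is the only one of the 10 genes under 2000 bases. These are relations across genes within single libraries, and their part in the differences between groups was not tested.

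**Figure D5:**
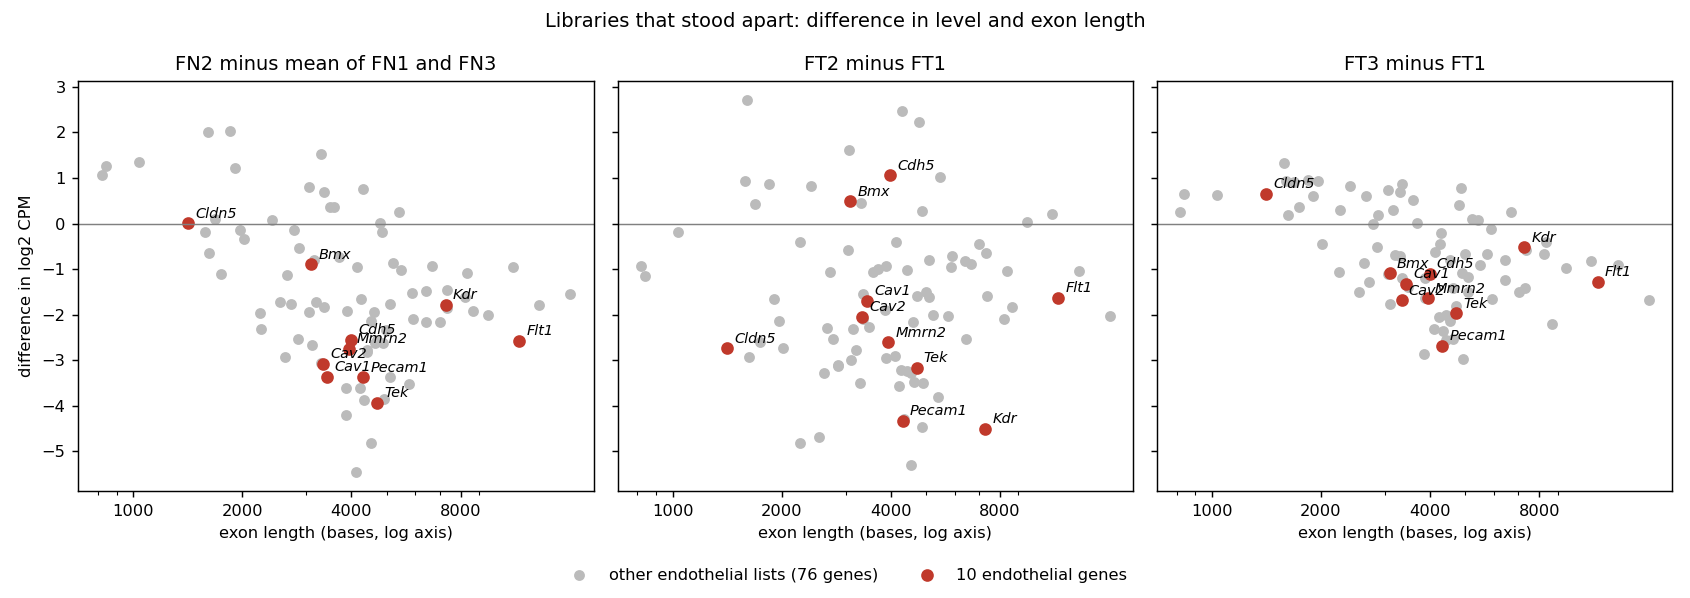
Difference in log2 CPM (vertical axis) against exon length (bases, log axis) for FN2 minus the mean of FN1 and FN3, FT2 minus FT1 and FT3 minus FT1, with the 10 endothelial genes in red and genes of the other endothelial lists in grey. Shorter genes sit higher than longer ones in FN2 and FT3, with Cldn5 at 0.01 and 0.65, and no such slope is seen in FT2, where Cdh5 and Bmx lie above 0.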

How the data were processed

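RNA of sorted WGA-labeled trigeminal neurons was sequenced after SMART-seq2 preparation in 12 samples, 3 each of MN, MT, FN and FT, with groups and numbers from the sample titles. The extraction label names tumors as the source of the RNA, also for the normal groups, whereas the source, cell type and sorting labels name trigeminal neurons, which were taken as the source here. Per the labels and the study's methods, the authors aligned reads to mm9 with TopHat2 after CASAVA 1.8.2, used HTSeq for counting, and the deposited values are raw counts, whole numbers per gene. Other versions, the annotation and the strand setting are not given in the sources used here. The labels state that normal mice received no cells, while the study's methods mention injected keratinocytes, and this could not be settled.

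Rows without a gene name held 76.3% to 88.8% of the 30825251 to 42495642 counts over all rows of a library and were left out. CPM were taken over gene rows, and RPKM used exon lengths of GENCODE M1 (21627 of 22609 symbols). Counts were tested with edgeR 4.0.16 (quasi-likelihood, TMM, filterByExpr with minimum counts of 10 and 15, 4 group means) in R 4.3.3, with Benjamini-Hochberg adjustment over all genes tested, and X and Y genes were not tested between the sexes. The 3 samples of a group are described as independent pools, so p-values measure the spread between pools. DESeq2 1.42.0 and limma 3.58.1 were alternatives, as were other filters, the replicate number as a block, the 2 groups alone, the study's criteria (1.5-fold, 5 RPKM) and sets of libraries. Replicate numbers were not taken to pair samples. Of 18 same-numbered pairs of libraries, 5 had correlated deviations above 0.1, with a range of -0.36 to 0.57. Of 36 other pairs 8 did, with a range of -0.65 to 0.61. This check cannot exclude a pairing, since FN2, FT2 and FT3, which stood apart, take part in it. No 2 libraries of a group agreed within sampling noise (chi-square per degree of freedom of 5.92 or more). The test was also run on simulated counts with independent noise, which held no length relation like that of FN2 and FT3. That check therefore cannot vouch for the test on those libraries.

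The text names the 10 genes, at most 4 genes of largest mean CPM per list, and the 10 genes most correlated with the mean of the 10 genes over 12 libraries among those with a mean CPM over 1. The correlated genes over 9 libraries and Vegfa, Pgf, Fn1 and Slc38a5 were named in addition, after their values were seen. The genes and lists were chosen with earlier results of these data known.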

Additional observations from a re-analysis of the deposited data

How the results depend on the processing

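In edgeR with 12 libraries 0 genes were called in each of the 5 comparisons, and 0 endothelial genes, also with the replicate block, which left every count at 0 and turned only Tek in MT versus MN, to 0.021. Over all genes, other settings called 20 (DESeq2), 800 (limma-voom), 54 (9 libraries) and 728 (MN, FN1 and FN3 alone) in FN versus MN, 246 (DESeq2) and 1 (9 libraries) in FT versus MT, and 2 (DESeq2), 47 (limma-voom), 3 (9 libraries) and 6 (MN and MT alone) in MT versus MN. Of the endothelial genes, 3 (limma-voom) and 5 (MN, FN1 and FN3 alone) were called in FN versus MN. The study's criteria on unadjusted p, fold change and RPKM, set on the edgeR fit, took in 1, Cav2, in FT versus FN and 1, Cav2, in FT versus MT. By unadjusted p alone, 0.643% and 2.09% of all genes were lower in these comparisons. The study set its criteria on p-values of another test, DESeq. It named Cav2, Tek, Bmx, Mmrn2, Cdh5 and Pecam1 as lower in FT than in FN.

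Directions turned for some genes. In FT versus FN Cldn5 was at 0.39 with 10 libraries and 0.43 in the 10-library fit of these groups alone, and Cdh5 at -1.18, -0.78 and -0.95 with 10 libraries, 9 libraries and limma-voom and -1.15 in the 10-library fit of these groups alone. In FN versus MN, in the order 10 libraries, 9 libraries, limma-voom and the 10-library fit of these groups alone, Cav1 was at 0.47, 0.48, 0.51 and 0.48 and Cav2 at 0.14, 0.15, 0.20 and 0.15. In FT versus MT, in the same order, Flt1 was at 0.10, 0.55, 0.16 and 0.10 and Cdh5 at -0.40, -0.0082, -0.042 and -0.40, and with 9 libraries Tek was at 0.17 and Mmrn2 at 0.045. For the difference between the sexes Cldn5 was at 0.30 with 10 libraries and Cdh5 at -1.34, -0.95 and -1.01 with 10 libraries, 9 libraries and limma-voom, and at -0.0084 without a filter on low counts. The cause was not tested. Among log2 fold changes under settings other than leaving out 1 library, 364 kept their direction and their side of the threshold, 30 turned and 8 passed the threshold, all in FN versus MN.

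Leaving out 1 library at a time gave 0 to 1 genes called in FN versus MN (1 without FN1), and 0 to 755 genes and 0 to 2 endothelial genes in FT versus MT (the highest without FT1, with FT2 and FT3 as the only FT libraries, for Pecam1 and Cav2). In FT versus FN it moved Cldn5 from -0.97 (without FT3) to 0.21 (without FT2) and Cdh5 from -0.77 (without FT2) to 0.59 (without FT3). In FN versus MN it moved Pecam1 from -0.046 to 0.82, Cav1 from -0.40 to 0.49, Cav2 from -0.87 to 0.16 and Mmrn2 from -0.084 to 0.75, the highest each without FN2. In FT versus MT it moved Cldn5 from -0.20 to 0.98, Flt1 from -0.60 to 0.32 and Cdh5 from -0.40 to 0.97. In MT versus MN it moved Cldn5 from -0.29 to 0.44, Flt1 from -0.32 to 0.47, Kdr from -0.43 to 0.57, Tek from -0.67 to 0.13, Cdh5 from -0.26 to 0.52, Bmx from -0.092 to 0.46, Cav1 from -0.10 to 0.20, Cav2 from -0.21 to 0.12 and Mmrn2 from -0.29 to 0.38. For the difference between the sexes Cldn5 moved from -1.06 to 0.12 and Cdh5 from -0.94 to 0.44.

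The 12-library likeness list shared 0 genes with the 9-library list. FN2, FT2 and FT3 are 3 of the 6 female libraries, so the female comparisons rest on few others. Kdr, Tek and Pecam1 had the fewest reads in a library, 1, 13 and 22, all in FT2, and the unstated strand setting leaves Cav1, Cav2 and Pecam1 open to antisense reads. The 10-library fit of 2 groups was added after seeing the data.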
